A study of Mus musculus with 6 samples.

Results

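Death receptor signalling was followed through 9 genes in 4T1.2 cells, a mouse mammary tumour line of BALB/c background: the ligand gene Tnfsf10 (TRAIL), the receptor genes Fas, Tnfrsf10b (the TRAIL receptor) and Tnfrsf1a (TNF receptor 1), the adaptor gene Fadd, the caspase-8 gene Casp8, its regulator Cflar (c-FLIP), and the kinase genes Ripk1 and Ripk3. Members were chosen by symbol: every non-control probe that the scanner files name for one of these genes was taken, which gave 19 of the 41174 probes. Of the 9 genes, 8 (17 probes) were bright enough to test, among 15414 genes tested in all. One group carried Irf7, a transcription factor that turns on type I interferon genes, in the pMSCV retroviral vector; the other carried the pMSCV base vector. Both groups were selected with puromycin and grown from several pooled single-cell clones, so each group is 1 pooled population driven by a viral promoter, and the p-values reflect how much the 3 arrays of a group varied, described by the submitters as independent experiments.

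In the IRF7 cells 7 of the 8 tested genes rose and Fadd fell. The rises were 4.78-fold for Tnfsf10, 3.28-fold for Fas, 1.57-fold for Tnfrsf10b and 1.45-fold for Cflar, and the remaining changes, in Tnfrsf1a, Casp8, Ripk1 and Fadd, were under 1.2-fold at each gene's brightest probe. These 8 counts stand against a large background: 60.1% of all genes tested were called at a limma adjusted p under 0.05, 31.3% higher and 28.8% lower, and 5.87% were called with a change of at least 2-fold. Of the members, 2 reached 2-fold. Both of these, Fas and Tnfsf10, passed the filter on dim probes mainly through the IRF7 arrays. With another background correction (normexp, described below) the log2 change was 1.21 for Tnfsf10 and 0.75, under 2-fold, for Fas.

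As background, ligands such as TRAIL and Fas ligand cluster their receptors at the cell surface, and the receptors recruit FADD through a death domain. FADD in turn gathers procaspase-8, which cuts itself free and activates the executioner caspases. c-FLIP resembles caspase-8, competes for the same complex and can hold the enzyme back. TNF receptor 1 first builds a survival complex around RIPK1. When caspase-8 is held inactive, RIPK1 and RIPK3 can instead lead to necroptosis, a lytic death carried out by MLKL. In tumours TRAIL and Fas ligand are best known as weapons of natural killer and T cells, and tumour cells vary in how many of the receptors they carry.

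RNA was read on 6 single-colour Agilent arrays. The processed signal is the background-subtracted intensity of a spot on a linear scale, and the level used for tests is its log2 value minus that of the array's 75th percentile, which was 1153 to 1467. Between 54.3% and 59.7% of the mouse probe spots on an array were well above background. Log2 levels correlated at 0.996 to 0.997 between arrays of a group and at 0.978 to 0.980 between groups. Slide 1 (scan 1) held the 3 IRF7 arrays together with base-vector replicate 1, and slide 2 (scan 2) held the remaining pair of base-vector arrays. The introduced gene bore out the labels: Irf7 (probe A_51_P421876) read 246, 195 and 210.5 in the base-vector cells and 4486, 4963 and 5012 in the IRF7 cells, 19.4-fold higher (log2 change 4.28, SE 0.049, limma adjusted p = 4.11e-07). Because each array reads a whole culture, a larger share of cells with a transcript and more transcript per cell cannot be told apart.

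The identity of the cells was checked on marker lists. The keratin genes Krt8 and Krt18 were well above background on every array. Of 8 epithelial markers 7 were tested, with 3 higher and none lower in the IRF7 cells. The higher ones were Krt7 (6.17-fold), Epcam (2.29-fold) and Krt8 (1.11-fold), and Krt19 was well above background on no array. The summed level of the epithelial markers came mostly from Krt8 and Krt18. It was 339 to 359 times the array's 75th percentile in the base-vector cells and 375 to 392 times in the IRF7 cells. Of 9 myeloid markers on the array, 4 were tested and 2 were higher, with a summed level of 2.34 to 2.45 against 2.86 to 3.12. Cd14 and Cd68 were well above background on every array, with log2 changes of 0.38 (limma adjusted p = 0.000302) and 0.0059 (adjusted p = 0.900). Cd74 was well above background on the IRF7 arrays alone and at least 1.84-fold higher there (adjusted p = 0.00218), a bound against the lowest signal well above background on each base-vector array or the probe's own signal if higher. Csf1r was also well above background on the IRF7 arrays alone but was not called (log2 change 0.26, limma adjusted p = 0.328). Lyz2 was so on 2 IRF7 arrays, Adgre1 and Fcgr3 on 1 IRF7 array each, and Ptprc on 1 base-vector array. None of these last genes was tested. Itgam stayed below the detection limit on all 6 arrays. Of 10 lymphocyte markers 3 were tested and none was called, with sums of 0.24 to 0.46 against 0.29 to 0.40, and Cd8a, Ms4a1 and Ncr1 stayed below that limit. Of 10 fibroblast and endothelial markers 4 were tested, with Pdgfra and Dcn lower and Cdh5 higher; the sums were 5.70 to 5.83 against 2.62 to 2.72, while Pecam1, Kdr and Lum stayed below it. The part of these shifts in the results was not tested.

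The sequences shown are some of the array's own probes, since several readings of one gene differed, and the promoter windows of some members. The part of the promoters in the changes was not tested. The probes for the most changed receptor and ligand are shown first. The Fas probe lies on chromosome 19, positions 34028644 to 34028703, and the Tnfsf10 probe on chromosome 3, positions 27151623 to 27151682, both on the plus strand of mouse build mm7 as the files give it. Whether a probe lies in coding or untranslated sequence was not assigned here. The Tnfsf10 probe shares a stretch of 16 bases with a probe for Bbx, and the Fas probe shares none of that length with a probe of another gene.
Fas A_51_P345393: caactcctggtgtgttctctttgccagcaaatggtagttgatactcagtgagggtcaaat
Tnfsf10 A_51_P448741: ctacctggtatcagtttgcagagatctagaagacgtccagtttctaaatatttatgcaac

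The 5 Cflar probes are shown because those at the start of the stretch they cover and those further along it gave different readings. Where this stretch lies within the gene was not assigned. All lie on the plus strand of chromosome 1 (mm7). The first and second probe below are named for transcript variant 2 in the files. The pair with capitals shares 36 bases, the stretch in capitals, so the pair does not give independent readings. The first probe covers 1025 bases of genome with its 60 bases, so it is split across the genome.
Cflar A_52_P192071: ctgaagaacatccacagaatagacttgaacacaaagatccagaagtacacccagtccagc
Cflar A_51_P135491: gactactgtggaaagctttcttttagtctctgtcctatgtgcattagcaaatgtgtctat
Cflar A_52_P624648: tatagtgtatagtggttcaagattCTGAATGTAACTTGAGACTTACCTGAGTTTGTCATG
Cflar A_52_P226929: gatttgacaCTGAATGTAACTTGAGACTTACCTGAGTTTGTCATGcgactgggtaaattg
Cflar A_51_P326091: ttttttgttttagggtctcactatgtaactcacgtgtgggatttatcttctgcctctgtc

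Promoter windows, from 250 bases before to 50 after the start of a gene, were taken from RefSeq (GRCm38.p6) for 8 of the 9 members, 9 windows in all. They were searched on both strands for the core of the interferon-stimulated response element, to which interferon regulatory factors bind (GAAA, any 2 bases, GAAA, in 3.44% of all 32851 windows), for the palindromic STAT site (TTCNNNGAA, in 8.30%) and for an NF-kB site (GGG, any 3 bases, TTCC, in 5.56%). The response element core was found in Cflar, on the minus strand with its first base at position 7, and in the second of the Ripk1 windows at position -5. The STAT site was found in Fas at -93, in Tnfrsf1a at -244 and in the same Ripk1 window at -108 and -11, and the last of these overlaps the response element core. None of the letters searched occurred in the windows of Tnfsf10, Fadd, Casp8 or Ripk3. A match describes letters and is no evidence of binding. The windows of 2 genes with the response element core and of the 2 most changed members are printed, with matches in capitals. They lie at chr1:58711241-58711540, chr13:34002624-34002923, chr19:34290409-34290708 and chr3:27316827-27317126, all on the plus strand.
Cflar promoter: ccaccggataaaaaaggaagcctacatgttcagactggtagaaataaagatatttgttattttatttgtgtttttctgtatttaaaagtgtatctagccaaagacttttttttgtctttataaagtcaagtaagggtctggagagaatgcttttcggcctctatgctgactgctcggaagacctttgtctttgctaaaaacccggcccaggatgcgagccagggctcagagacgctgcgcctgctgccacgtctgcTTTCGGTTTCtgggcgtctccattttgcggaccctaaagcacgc
Ripk1 promoter, second window: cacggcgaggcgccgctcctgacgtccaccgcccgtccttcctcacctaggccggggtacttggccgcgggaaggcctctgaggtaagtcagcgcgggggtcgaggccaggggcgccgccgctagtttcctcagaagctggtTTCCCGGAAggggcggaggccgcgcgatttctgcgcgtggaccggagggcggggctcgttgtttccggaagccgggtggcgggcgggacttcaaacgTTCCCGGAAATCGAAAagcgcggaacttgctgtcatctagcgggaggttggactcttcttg
Fas promoter: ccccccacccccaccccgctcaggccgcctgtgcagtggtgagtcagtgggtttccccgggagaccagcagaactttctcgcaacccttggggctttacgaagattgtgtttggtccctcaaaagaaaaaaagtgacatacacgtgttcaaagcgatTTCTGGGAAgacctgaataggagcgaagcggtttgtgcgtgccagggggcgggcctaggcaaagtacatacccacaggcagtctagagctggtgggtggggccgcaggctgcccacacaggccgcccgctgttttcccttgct
Tnfsf10 promoter: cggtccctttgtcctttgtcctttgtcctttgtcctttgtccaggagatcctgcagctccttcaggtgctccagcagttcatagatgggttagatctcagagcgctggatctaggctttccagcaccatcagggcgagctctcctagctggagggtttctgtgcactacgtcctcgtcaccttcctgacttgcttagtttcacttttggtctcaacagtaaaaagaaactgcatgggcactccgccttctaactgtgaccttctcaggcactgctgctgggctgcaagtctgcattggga

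Tnfsf10, which encodes the death ligand TRAIL, showed the largest change among the members. Its probe read 34.4, 36.2 and 47.1 in the base-vector cells and 191, 213 and 239 in the IRF7 cells. The groups did not overlap, and the lowest IRF7 array was far above the highest base-vector array. Mean log2 levels were -4.96 ± 0.30 (SD, n = 3) and -2.70 ± 0.08 (SD, n = 3), a log2 change of 2.26 (SE 0.15, limma adjusted p = 9.89e-05). The probe was well above background on 2 of the 3 base-vector arrays, so the base-vector level lies close to the limit of detection. With normexp background correction, which adds an offset of 50 to every spot, the log2 change was 1.21. Against base-vector replicate 1 alone, the base-vector array on the slide of the IRF7 arrays, the change was 2.54.

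The receptor for this ligand, Tnfrsf10b, rose at all 3 of its probes, which lie along chromosome 14 from position 64420668 to 64427925. Its brightest probe (A_52_P351638) read 567, 494 and 479 in the base-vector cells and 875, 967 and 929 in the IRF7 cells. A_51_P389028 read 406, 376 and 337 against 617, 681 and 676. A_52_P10134 read 353, 297 and 280.4 against 536, 551 and 601. At each probe every IRF7 array was above every base-vector array. The log2 changes were 0.65 (SE 0.048), 0.62 (SE 0.056) and 0.66 (SE 0.055), with limma adjusted p of 0.000138, 0.000285 and 0.000218. Changes at the 3 probes were within 0.04 of each other on the log2 scale.

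Fas, the receptor for Fas ligand, rose to more than 3 times its base-vector signal. Its main probe (A_51_P345393) is printed in 10 spots on each array. Averaged over them it read 40.9, 30.7 and 31.3 in the base-vector cells and 121, 125 and 139 in the IRF7 cells. Mean log2 levels were -5.15 ± 0.14 (SD, n = 3) and -3.44 ± 0.04 (SD, n = 3), and the log2 change was 1.71 (SE 0.075, limma adjusted p = 2.29e-05). The repeated spots show how tight the readings were: the highest spot used on a base-vector array was 50.5, and the lowest on an IRF7 array was 109. The coefficient of variation over the spots of an array was 8.11% to 15.3% in the base-vector cells and 5.16% to 7.08% in the IRF7 cells. A flagged spot of 132 on base-vector array 1 and another of 48.5 on base-vector array 2 were left out; with such spots kept, a check chosen after the data were seen, the log2 change was 1.63. The probe was well above background on 1 base-vector array and on all 3 IRF7 arrays, and with normexp correction the log2 change was 0.75.

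A second Fas probe (A_52_P73385, chromosome 19, positions 34010475 to 34010534), made to a separate cDNA record upstream on the same strand, read 9.53, 6.88 and 7.32 in the base-vector cells and 6.74, 6.04 and 6.13 in the IRF7 cells. No array showed this probe well above background and it was not tested, so the rise in Fas rests on 1 probe. The gene for the ligand itself, Fasl, read 6.78 to 8.68 in the base-vector cells and 8.64 to 10.01 in the IRF7 cells, which no array showed well above background.

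**Figure D1:**
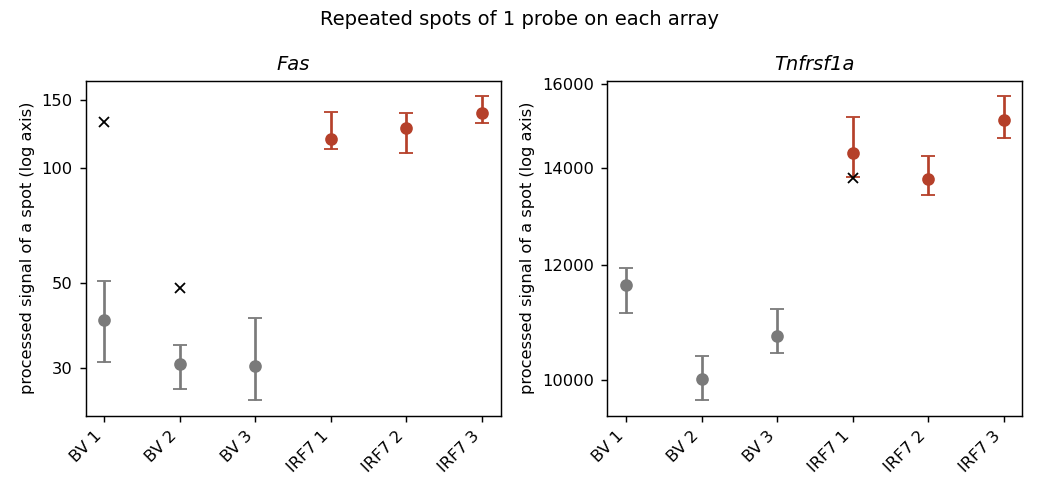
Processed signal (log axis) of the repeated spots of the Fas and Tnfrsf1a probes on each of the 6 arrays (BV, base vector); points are medians, bars run from the lowest to the highest spot used, and crosses are flagged spots left out. For Fas the spots used end at 50.5 on the base-vector arrays and begin at 109 on the IRF7 arrays; for Tnfrsf1a the bars of both groups are also apart, at a much smaller ratio.

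Tnfrsf1a, the receptor through which TNF signals to RIPK1, changed little. Its probe, also printed 10 times, read 11629, 10017 and 10739 in the base-vector cells and 14299, 13828 and 15113 in the IRF7 cells. The groups did not overlap, either on this scale or after scaling. The log2 change was 0.22 (SE 0.050, limma adjusted p = 0.0115), a 1.16-fold rise. The change was 0.21 with slide as a block (adjusted p = 0.0865) and 0.19 with median centring (adjusted p = 0.186), and neither passed the threshold. The spots of an array varied by 1.84% to 3.17%. The gene for its ligand, Tnf, read 7.64 to 11.7 and 11.5 to 16.1 and was below the detection limit throughout.

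**Figure D2:**
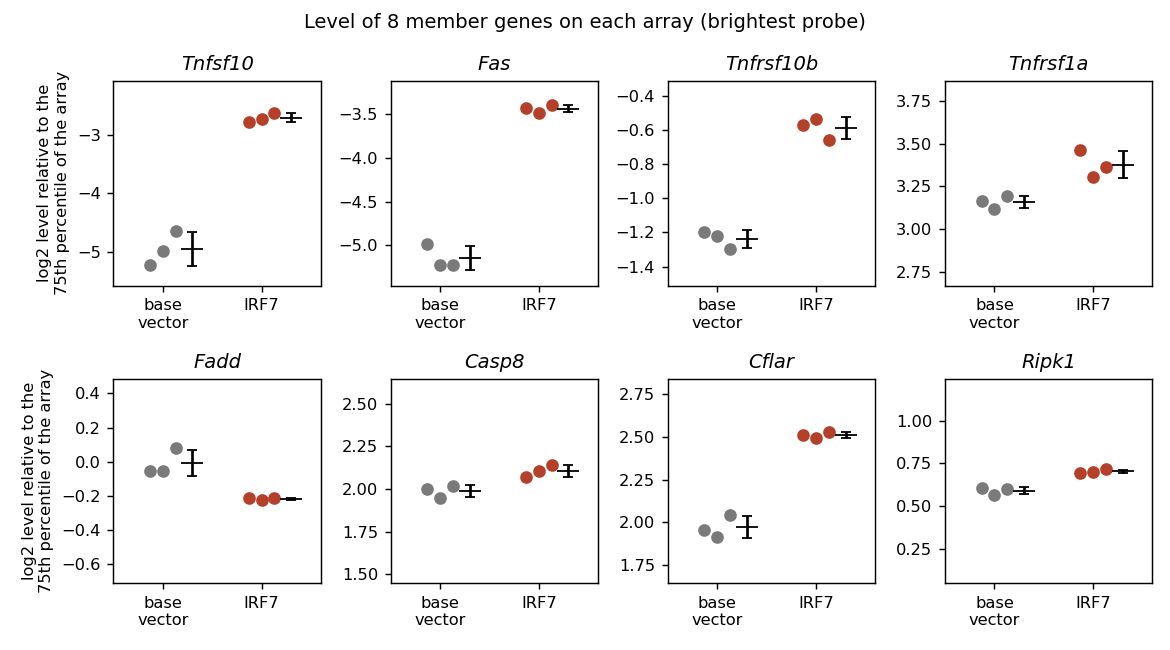
Log2 level relative to the array's 75th percentile for the brightest probe of the 8 tested genes, each panel on its own vertical range; points are arrays (3 per group), and the bars beside them give mean and SD. Groups are furthest apart for Tnfsf10 and Fas, Fadd is the gene with IRF7 arrays below the base-vector arrays, and the offsets for Tnfrsf1a, Casp8 and Ripk1 are small.

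Fadd, the adaptor that links receptors to caspase-8, was the member called lower. Before scaling, its brighter probe (A_51_P382925) read 1251, 1108 and 1239 in the base-vector cells and 1120, 1197 and 1264 in the IRF7 cells, and these overlap. After division by each array's 75th percentile the log2 levels were -0.01 ± 0.08 (SD, n = 3) and -0.22 ± 0.01 (SD, n = 3) and no longer overlapped. The log2 change was -0.21 (SE 0.045, limma adjusted p = 0.0100), and without scaling it was -0.0065 (adjusted p = 0.961). The second probe (A_52_P192418) read 361, 284 and 311 against 292.5, 263.5 and 340.2, with a log2 change of -0.29 (SE 0.093, adjusted p = 0.0376). Both calls were lost with slide as a fixed block (-0.17 and -0.38, adjusted p of 0.111 and 0.0807), while within slide 1 alone the first was called. Without scaling the second probe had a log2 change of -0.094 (adjusted p = 0.553), and neither probe was called. Both calls were also lost with median centring (-0.24 and -0.33, adjusted p of 0.0954 and 0.0617), and that of the second probe with quantile normalization (adjusted p = 0.0907) and without a filter on dim probes (adjusted p = 0.0562). Leaving out base-vector replicate 1 or 3 or IRF7 replicate 1 ended the call of the second probe too (adjusted p of 0.1002, 0.0902 and 0.0607).

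Fadd lies on chromosome 7, where the median log2 change over 1135 tested genes was -0.38. Within 5 Mb of it 107 genes were tested, with a median log2 change of -0.29, 63 of them called lower and 11 higher. The other members lay among genes with medians of -0.05 (Tnfsf10, 17 genes) to 0.30 (Fas, 59 genes), against 0.03 over all genes tested. For Ripk1 the median of its 44 neighbours was 0.28, above the change of Ripk1 itself. The part of the chromosome in the level of Fadd was not tested.

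Casp8, the initiator caspase of the pathway, rose by a small margin. Its probe (A_51_P247799, chromosome 1, positions 59095846 to 59095905) read 5185, 4448 and 4752 in the base-vector cells and 5452, 6017 and 6458 in the IRF7 cells. Scaled levels were 1.99 ± 0.04 (SD, n = 3) and 2.10 ± 0.03 (SD, n = 3), which did not overlap, with a log2 change of 0.12 (SE 0.036, limma adjusted p = 0.0332), a 1.08-fold rise. Leaving out base-vector replicate 1 or 2 or IRF7 replicate 2 or 3 ended the call, with adjusted p of 0.0749, 0.0844, 0.0866 and 0.110. It was also lost with quantile normalization (log2 change 0.071, adjusted p = 0.108), median centring (0.084, adjusted p = 0.520), slide as a fixed block (0.11, adjusted p = 0.202) and no filter on dim probes (adjusted p = 0.0690), and stood in 11 of the 20 alternatives run.

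Cflar, the caspase-8 regulator, rose at 3 of its 5 probes. The brightest (A_51_P326091, positions 59009837 to 59009896) read 5038, 4346 and 4843 in the base-vector cells and 7389, 7874 and 8474 in the IRF7 cells. Its log2 change was 0.54 (SE 0.042, limma adjusted p = 0.000176). The overlapping pair gave similar changes: A_52_P226929 read 1151, 1023 and 1013 against 1499, 1650 and 1700, a log2 change of 0.40 (SE 0.030, adjusted p = 0.000135). A_52_P624648 read 504, 423 and 428 against 643, 712 and 738, a change of 0.43 (SE 0.037, adjusted p = 0.000240). At these 3 probes the groups did not overlap.

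The other Cflar probes, both at the start of the covered stretch, were not called. A_51_P135491 read 225, 219 and 190.3 in the base-vector cells and 240.0, 275 and 279 in the IRF7 cells, a log2 change of 0.12 (SE 0.065, adjusted p = 0.155). A_52_P192071 read 218, 215 and 189 against 197, 291 and 252 (log2 change 0.04, SE 0.13, adjusted p = 0.826). The scaled levels of the groups overlapped at both. The 3 called probes lie 23.0 to 27.5 kb further along the gene than the first. Their mean level exceeded that of the 2 upstream probes by 2.51 to 2.76 on the log2 scale in the base-vector cells and by 2.89 to 3.15 in the IRF7 cells, a shift of 0.38; the probes were grouped this way after their values were seen. Within a gene, each of the 6 pairs of an upstream and a downstream probe changed by different amounts without overlap (0.28 to 0.50, exact permutation p = 0.1, the smallest that 3 against 3 arrays allow, and 0.243 after Benjamini-Hochberg adjustment over the 17 pairs of tested probes within 4 genes). The overlapping probes A_52_P624648 and A_52_P226929 both enter these 6 pairs. Outside Cflar, Ripk1 A_52_P174775 and A_52_P452740 also differed without overlap (0.14, exact permutation p = 0.1, and 0.243 after the same adjustment). No pair could pass a threshold of 0.05 in this design.

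**Figure D3:**
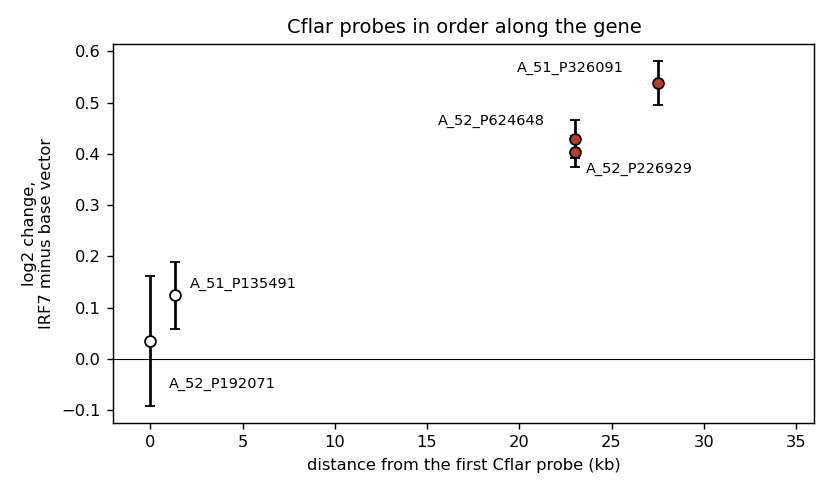
Log2 change (IRF7 minus base vector) of the 5 Cflar probes against their distance in kb from the first probe along the gene; bars are the standard error of the fit, filled points were called higher and open points were not called. The upstream probes lie at 0.04 and 0.12 and the downstream probes at 0.40 to 0.54.

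Ripk1, the kinase that sits between survival and necroptosis, changed by little and unevenly over its 3 probes on chromosome 13. The brightest (A_52_P174775) read 1971, 1706 and 1777 in the base-vector cells and 2099, 2273 and 2406 in the IRF7 cells, a log2 change of 0.11 (SE 0.028, limma adjusted p = 0.0164) without overlap of the groups after scaling. Leaving out IRF7 replicate 2 or 3 ended the call (adjusted p = 0.0523 and 0.0635), as did median centring (0.517) and slide as a fixed block (0.153). A_51_P430952 read 972, 783 and 745 against 1043, 1036 and 1108 (log2 change 0.16, SE 0.070, adjusted p = 0.0994), and A_52_P452740 read 179.7, 171 and 163 against 179.9, 204 and 194 (log2 change -0.03, SE 0.051, adjusted p = 0.649). Neither was called, and the scaled levels of the groups overlapped at both.

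Ripk3, the kinase that phosphorylates MLKL, was not detected. Its probe (A_51_P491987, chromosome 14, positions 50652465 to 50652524) read 7, 6.8 and 7.25 in the base-vector cells and 6.73, 5.97 and 6.02 in the IRF7 cells. No array showed it well above background, so a difference was not detectable with this probe.

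**Figure D4:**
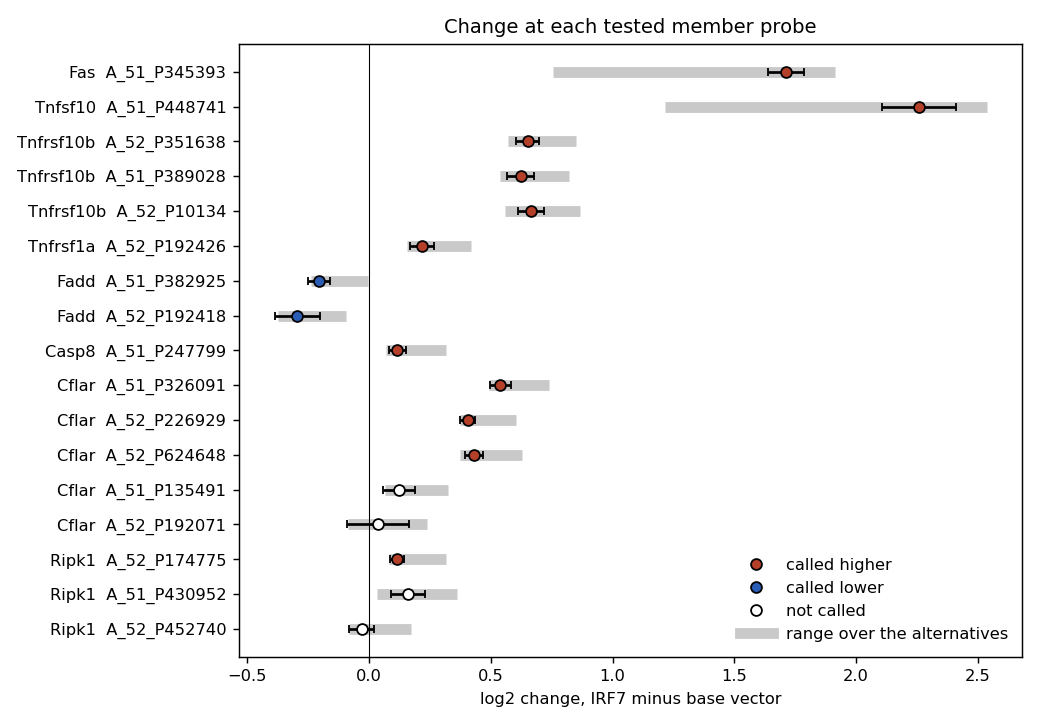
Log2 change (IRF7 minus base vector) at the 17 tested probes of the members; bars are the standard error of the fit, colour gives the call, and grey bands give the range over the alternatives tried. Tnfsf10 and Fas lie furthest to the right with wide bands that begin at 1.21 and 0.75. The bands of Fadd, Casp8, Ripk1 and the uncalled Cflar probes come close to or cross 0.

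Read probe by probe, 11 of the 17 tested probes were called higher, 2 lower and 4 not, where 58.6% of all 23518 probes were called, 30.4% higher and 28.2% lower. The groups did not overlap at 13 of the 17, against 66.1% of all probes, and at the brightest probe of all 8 tested genes, against 67.8% of genes; 2 of the 17 were called with at least 2-fold changes, against 5.32% of probes. The median log2 change over the 8 tested genes was 0.38, against 0.03 over all genes tested. With slide as a fixed block, which takes the change from base-vector replicate 1 alone and assumes that this array varies like the others, Tnfsf10, Fas, Tnfrsf10b and Cflar were called higher and no member lower. The same 4 genes, and no other member, were called with median centring. Without scaling, 79.4% of the called probes of the array were higher in the IRF7 cells, against 51.9% with it.

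The surrounding pathway was read from 6 lists of 90 other genes, of which 77 were tested; 35 were higher, 13 lower and 29 not called, with a median log2 change of 0.08. Counts of calls in every list are to be set against the 60.1% called among all genes. Without scaling 42 were higher and 2 lower, and with median centring 22 were higher and 12 lower, so the balance of directions depends on the scaling. Of these genes 31 had more than 1 tested probe; in 12 the probes fell into different calls and in none were probes called in opposite directions.

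The necroptosis list held the largest rises among the 6 lists. All 10 of its genes were tested, 7 were higher and 1 lower, and the median log2 change was 0.52. Zbp1, a sensor of Z-form nucleic acid that engages RIPK3, read 158, 139 and 144 in the base-vector cells and 2024, 2189 and 2206 in the IRF7 cells, a log2 change of 3.66 (SE 0.031, limma adjusted p = 4.09e-07). Eif2ak2, the double-stranded RNA kinase PKR, rose by 2.17 on the log2 scale and Tlr3, an endosomal receptor for double-stranded RNA, by 2.01, with adjusted p of 6.63e-07 and 9.29e-06. Ripk4, a kinase related to RIPK1 and RIPK3 by sequence, rose by 1.83 (adjusted p = 4.73e-05). Mlkl, the executor of necroptosis, read 6662, 5517 and 6102 against 10383, 10869 and 12017, a log2 change of 0.67 (SE 0.045, adjusted p = 9.77e-05). The gene for the executor was well above background on every array of both groups, whereas the probe for its kinase Ripk3 was so on no array. Zbp1, Eif2ak2 and Tlr3 are also well-known interferon-induced genes, and the list was put together with earlier results of these data known.

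Among other receptors of the family, 11 of 15 were tested, with 6 higher, 3 lower and a median log2 change of 0.29. Tnfrsf22, a decoy receptor for TRAIL in the mouse, read 227, 187 and 199 in the base-vector cells and 388, 437 and 458 in the IRF7 cells. Its log2 change was 0.87 (SE 0.042, limma adjusted p = 3.20e-05), a rise beside those of the receptor Tnfrsf10b and the ligand. Near it on chromosome 7, Tnfrsf23 rose by 1.22 (adjusted p = 0.00120) and Tnfrsf26 fell by 0.39 (adjusted p = 0.00866). The Tnfrsf23 probe was well above background on 2 base-vector arrays and on all 3 IRF7 arrays. Tnfrsf12a, the receptor for TWEAK, rose by 0.77 and Tnfrsf21, known as death receptor 6, by 0.59, with adjusted p of 7.95e-05 and 0.000122. Ngfr, the p75 neurotrophin receptor, fell by 0.77 on the log2 scale (adjusted p = 6.35e-05) at its brightest probe. Of 10 other ligand genes 8 were below the detection limit on all arrays and 1 was tested: Ltb, which encodes lymphotoxin beta, fell from 66.6, 66.9 and 57.6 to 23.1, 27.6 and 31.7 (log2 change -1.42, SE 0.095, adjusted p = 9.54e-05). Its probe was well above background on all 3 base-vector arrays and on 1 IRF7 array, so it passed the filter mainly through the base-vector cells and its level in the IRF7 cells lies close to the limit of detection.

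The list of the receptor complex and the ubiquitin enzymes that control RIPK1 was fully tested: 11 of 25 genes were higher, 2 lower and 12 not called, with a median log2 change of 0.09. Rnf31, the catalytic subunit of the linear ubiquitin ligase, rose by 0.65 on the log2 scale (SE 0.029, limma adjusted p = 2.28e-05). Tnfaip3, which encodes the ubiquitin-editing enzyme A20, rose by 0.40 and Traf3, an adaptor, by 0.35 (adjusted p of 0.000216 and 0.000291). Birc2, a ubiquitin ligase that modifies RIPK1, fell by 0.43 (adjusted p = 0.000215). Tradd, the adaptor of TNF receptor 1, had a log2 change of -0.10 and was not called (adjusted p = 0.0727).

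Regulators that act through death domains or on caspase-8 showed 6 higher, 3 lower and 5 not called of 14, with a median log2 change of 0.02. Pea15a, a death effector domain protein that binds FADD, rose by 0.93 on the log2 scale (SE 0.035, limma adjusted p = 1.33e-05). Daxx, which was first described as a binder of FAS, rose by 0.81 (adjusted p = 1.22e-05), and Casp8ap2, a caspase-8 associated protein, by 0.39 (adjusted p = 0.00150). Dap3 fell by 0.24 at its brightest probe (adjusted p = 0.00145), and its dimmer probe was not called (log2 change -0.02, adjusted p = 0.903).

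Downstream, 5 of 16 genes of the execution and mitochondrial branch were higher, 3 lower and 8 not called, with a median log2 change of 0.02. Cycs, the gene for cytochrome c, rose by 0.80 on the log2 scale (SE 0.057, limma adjusted p = 0.000126). Bak1 rose by 0.48 at its brightest probe and Bax, its partner in opening the mitochondrial outer membrane, fell by 0.34 (adjusted p of 0.000357 and 0.000570). The other Bak1 probe (A_52_P225207) had a log2 change of 0.07 and was not called (adjusted p = 0.125). Bid, which caspase-8 cuts to carry the signal to mitochondria, had a log2 change of -0.02 and was not called (adjusted p = 0.717). Of the genes in these lists that lie on chromosome 7, where Fadd lies, 7 were tested, 3 of them higher and 3 lower; Bax is one of these.

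**Figure D5:**
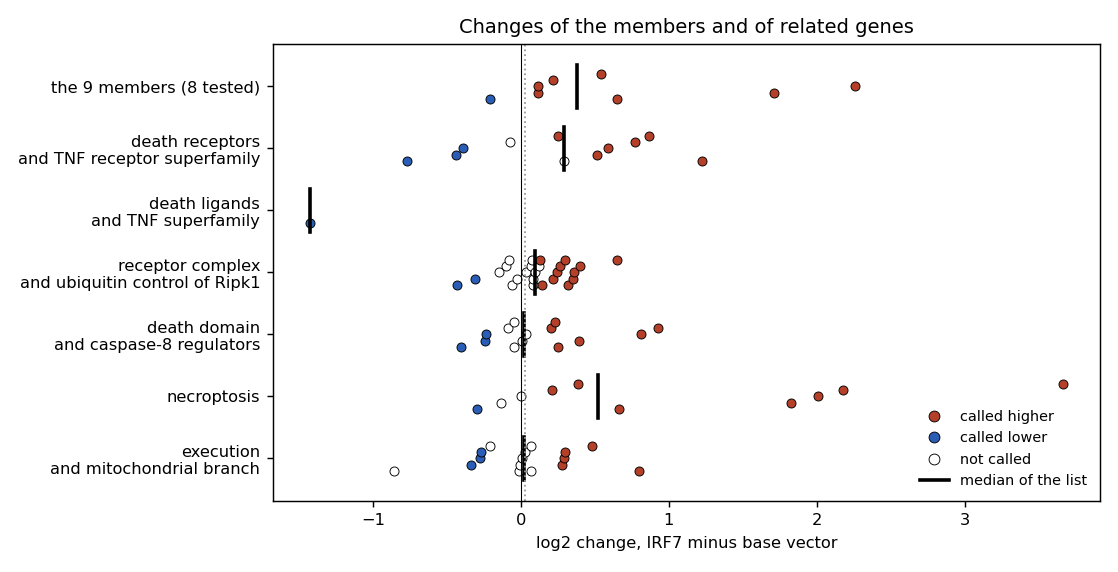
Log2 change (IRF7 minus base vector) of each tested gene, by its brightest probe, for the members and the 6 related lists; filled red and blue points were called higher and lower, open points were not called, thick bars are list medians and the dotted line is the median of all genes tested (0.03). The necroptosis list reaches 3.66 (Zbp1) and its median is 0.52, while the medians of the death domain and execution lists are 0.02. Zbp1, Eif2ak2 and Tlr3 of the necroptosis list are also interferon-induced genes, and the lists were put together with earlier results of these data known.

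Genes with the pattern most like a member over the 6 arrays were found among 12084 named genes by the root mean square difference of centred log2 levels. For Tnfsf10, the member with the largest rise, these were Ifi47 (0.093), Arhgap29 (0.12), Il18rap (0.12), Id4 (0.13) and Liph (0.13), with log2 changes of 2.05 to 2.26. For Fadd, the member that fell, they were Usp3 (0.013), Ccdc32 (0.014), Pgls (0.014), Ndufaf7 (0.017) and Gemin7 (0.017), with log2 changes of -0.22 to -0.19. Likeness over arrays of 2 groups mostly reflects an equal difference between the groups.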

How the data were processed

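RNA of 3 base-vector and 3 IRF7 cultures of 4T1.2 cells was read on single-colour Agilent arrays. Agilent Feature Extraction 9.5.3.1 turned the scans into text, per the submitters' processing notes, and per the file headers the deposited processed signal is a background-subtracted, detrended intensity on a linear scale, not scaled between arrays. The value table that the authors deposited is identical to it and served as the unscaled alternative. Probe coordinates are those of the files (mm7).

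Control spots and spots flagged as outliers (111 to 121 per array) were left out, and spots of a probe were averaged as log2 values. Gene names were updated through the RefSeq table of GRCm38.p6: 22951 probes by accession, 6659 by symbol and 3109 by an older symbol, with 8455 keeping the file's name. A probe was counted well above background on an array where at least 50% of its spots were, and kept where this held on 3 of 6 arrays (23518 of 41174 probes). The level was log2 of the processed signal minus the array's 75th percentile. The brightest kept probe stood for a gene. IRF7 was compared with base vector by limma (3.58.1, R 4.3.3; lmFit and eBayes over all 6 arrays, no block), with Benjamini-Hochberg adjustment over all probes kept and a threshold of 0.05. The procedure was tested on simulated data. Files were read and plots drawn with Python 3.11.15, pandas 2.3.3 and matplotlib 3.10.9. The number of arrays limits the precision.

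The genes named were all probes of the members, Irf7, up to 4 genes with the smallest p in each related list, Fasl, Tnf, Mlkl, Zbp1, Bid and Tradd for their roles, and the 5 genes nearest in pattern to the largest rise and the largest fall. Single marker genes, Tnfrsf23 and Tnfrsf26 were picked outside this rule after their values were seen. Of the genes this rule chose, 1 is not reported here, though it counts in its list. The members and lists were chosen with earlier results of these data known. Alternatives tried for the values were quantile normalization, median centring, no scaling and normexp correction (offset 50). For the probes they were dropping the filter, asking for all 6 arrays, and 1 probe per gene. For the fit they were eBayes with trend and robust, the slide as a random or fixed block, the arrays of slide 1, a replicate block, and leaving out each array. Using the median of a probe's spots and keeping outlier spots were added after seeing the data.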

Additional observations from a re-analysis of the deposited data

How the results depend on the processing

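Tnfsf10, Fas, all 3 Tnfrsf10b probes and the 3 downstream Cflar probes kept their direction and their call under every alternative in which they were tested; Tnfsf10 and Fas were not tested when a probe had to be well above background on all 6 arrays. Members called higher numbered 4 with median centring, with slide as a fixed block and within slide 1; members called lower numbered 0 with median centring, unscaled and with slide as a fixed block, and 2 without a filter, where Ripk3 was added. Related genes called higher numbered 22 with median centring, and those called lower 2 unscaled. Without a filter 21503 probes were called. Leaving out 1 array gave 11889 to 13340 probes called, 5 to 7 members higher and 1 to 1 lower, and 33 to 36 related genes higher and 13 to 14 lower. Slide 1 and the fixed block take the same estimate and are 1 check. Uncalled probes changed sign: Cflar A_52_P192071 to -0.0088 with normexp (-0.087 to 0.14 with 1 array left out), and Ripk1 A_52_P452740 to 0.0096 with quantile normalization, 0.17 unscaled and 0.0024 with the slide block and within slide 1 (-0.066 to 0.0058 with 1 array left out). The cause was not tested. Same-numbered arrays deviated together with correlations of 0.03, 0.23 and 0.22, against -0.21 to 0.02 for arrays of different number. Each array correlated best with its own number. Whether the numbers pair the arrays was not settled, and the main fit took them as unpaired. With replicate number as a block 14474 probes were called, the members again 7 higher and 1 lower, and Ripk1 A_51_P430952 passed (log2 change 0.16, limma adjusted p = 0.0420). Low signal over background limits Tnfsf10 and Fas in the base-vector cells, Ltb in the IRF7 cells and Ripk3 in both groups. With normexp correction the log2 change of Fas was 0.75, under 2-fold.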
